A study of Mus musculus with 6 samples.

Results

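The genes described here code for the proteins of the mitochondrial ribosome. They were taken by symbol, as every row of the expression table named Mrpl or Mrps followed by digits and an optional letter, with pseudogenes left out. This gave 78 of 16423 genes, of which 29 carry small subunit symbols (Mrps) and 49 carry large subunit symbols (Mrpl). The samples were C3H10T1/2 cells, an established mouse mesenchymal line used as a culture model of adipocyte formation. Confluent cells were treated for 2 days with 3-isobutyl-1-methylxanthine, dexamethasone, insulin, triiodothyronine, indomethacin and rosiglitazone, and for a further 2 days with triiodothyronine, insulin and rosiglitazone. At day 4 they were transfected with a control siRNA (siNC, labelled WT, 3 libraries) or with siRNAs against YBX1 (siYBX1, labelled YBX1 knockdown, 3 libraries), and total RNA was taken 48 h later. All 6 libraries therefore come from cells that had gone through the same differentiation and a transfection. YBX1 binds both RNA and DNA through its cold-shock domain, and the knockdown lowers it without removing the gene.

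Mitochondria make a small set of proteins from their own genome, all of them subunits of the respiratory chain and ATP synthase in mammals. The ribosome that does this has its ribosomal RNA coded in the mitochondrion, whereas all its proteins are coded in the nucleus, made in the cytosol and imported. Some of these proteins descend from bacterial ribosomal proteins and others are found only in mitochondria. Adipocytes with many mitochondria, brown adipocytes above all, depend on this ribosome for their respiratory chain.

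Ybx1 stood at 135, 134 and 130 FPKM (fragments scaled by gene length and by library total) in siNC 1 to 3 and at 59.3, 67.9 and 61.3 in siYBX1 1 to 3, so that 47.3% of its mean level remained. The library totals behind the values lay between 31957411 and 35410308 reads. Adipocyte genes were present in both groups, with Adipoq between 468 and 707 FPKM and Fabp4 between 1136 and 1953 over the 6 libraries, although Cebpa was at most 0.626. The 7 adipocyte markers summed to 2030 to 2876 FPKM in siNC and 2554 to 3022 in siYBX1, and none of the 6 tested was called. Progenitor markers were mixed. Ly6a lay between 439 and 498 FPKM, Pdgfrb between 32.7 and 38.6 and Pdgfra between 20.6 and 25.1. Cd34 stayed at or below 0.323 and Thy1 at or below 0.391, and Dlk1 had no values. The sum of the 5 progenitor markers in the table was 539 to 559 FPKM in siNC and 497 to 519 in siYBX1, most of it from Ly6a. None of the 3 progenitor markers tested was called. Of the brown adipocyte markers Cidea lay between 16.5 and 23.2 FPKM and Cox8b between 101 and 174, while Ppargc1a stayed at or below 0.786, Dio2 at or below 0.355 and Prdm16 at or below 0.00613, and Ucp1 was not analysed here. Of 5 macrophage and leukocyte markers, Ptprc, Adgre1 and Itgam were at 0 in at least 1 library and Csf1r was at most 0.106 FPKM, while Cd68 was 10.8 to 24.3 in siNC and 6.80 to 11.1 in siYBX1 (log2 fold change −0.69, limma adjusted p = 0.0681). That list summed to 10.9 to 24.4 FPKM in siNC and 6.83 to 11.2 in siYBX1. The 3 endothelial markers in the table summed to at most 0.136 FPKM. What part the progenitor markers and Cd68 have in the results was not tested. Of the 3 siNC libraries, siNC 1 stood apart. The chi-square of reads per gene was 26.8 and 22.8 between it and the other two, 5.01 between siNC 2 and siNC 3, and 9.33 to 12.4 between siYBX1 libraries. Results are therefore also given without siNC 1 where it matters. The labels do not say that the libraries of a group came from separate cultures, so the p-values measure only how far these libraries differ, in part perhaps for technical reasons.

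More mitochondrial ribosomal protein genes were higher than lower in the knockdown, and the changes were small. All 78 genes passed the filter of a mean of at least 1 FPKM. A gene was called when the adjusted p of limma, over all 10341 genes tested, was below 0.05. Of the 78 genes, 16 were called higher (20.5%) and 2 lower (2.56%), beside 9.54% and 11.1% of all genes tested. The log2 fold changes, siYBX1 minus siNC on the log2(FPKM + 1) scale, ranged from −0.21 to 0.37 with a median of 0.11, and 55 of 78 were above 0. The median of all genes tested was −0.01. Values of all 3 siYBX1 libraries lay above all 3 siNC libraries for 32 of the 78 genes (41.0%) and below them for 2, against 19.0% and 21.9% of all genes tested. In these bulk samples, a change in RNA per cell and a change in the number of cells of a type cannot be told apart. Of all calls, 46.3% were higher, and this share was 29.6% after rescaling to TPM (per-length values brought to the same sum in every library).

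Among small subunit symbols, 7 of 29 genes were called higher (24.1%) and 2 lower (6.90%). Their median log2 fold change was 0.15 and 19 were above 0. Among large subunit symbols, 9 of 49 were called higher (18.4%) and none lower, with a median of 0.09 and 36 above 0. In the lower direction 1 large subunit gene, Mrpl50, had an unadjusted p of limma below 0.05, and voom on the recovered reads called 0. After rescaling to TPM, 2 were called lower, Mrpl2 and Mrpl50, and 5 higher, where 15.2% and 6.40% of all genes tested were called lower and higher. The difference between subunits was not tested. Leaving out siYBX1 1 lowered the counts of higher calls to 3 small and 5 large subunit genes, leaving out siYBX1 2 to 4 and 5, and leaving out siNC 1 to 5 and 5. Over all genes tested, higher calls fell as well, from 987 to 595 without siYBX1 1, 547 without siYBX1 2 and 970 without siNC 1. The large subunit median fell to 0.05 without siNC 1, and the small subunit median was 0.13 without it. The lower calls of the small subunit numbered 0 without siNC 2, siYBX1 1 or siYBX1 3, 1 without siNC 3 or siYBX1 2, and 2 without siNC 1. Over all genes tested, lower calls fell from 1145 to between 604 (without siYBX1 1) and 1056 (without siNC 1).

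**Figure D1:**
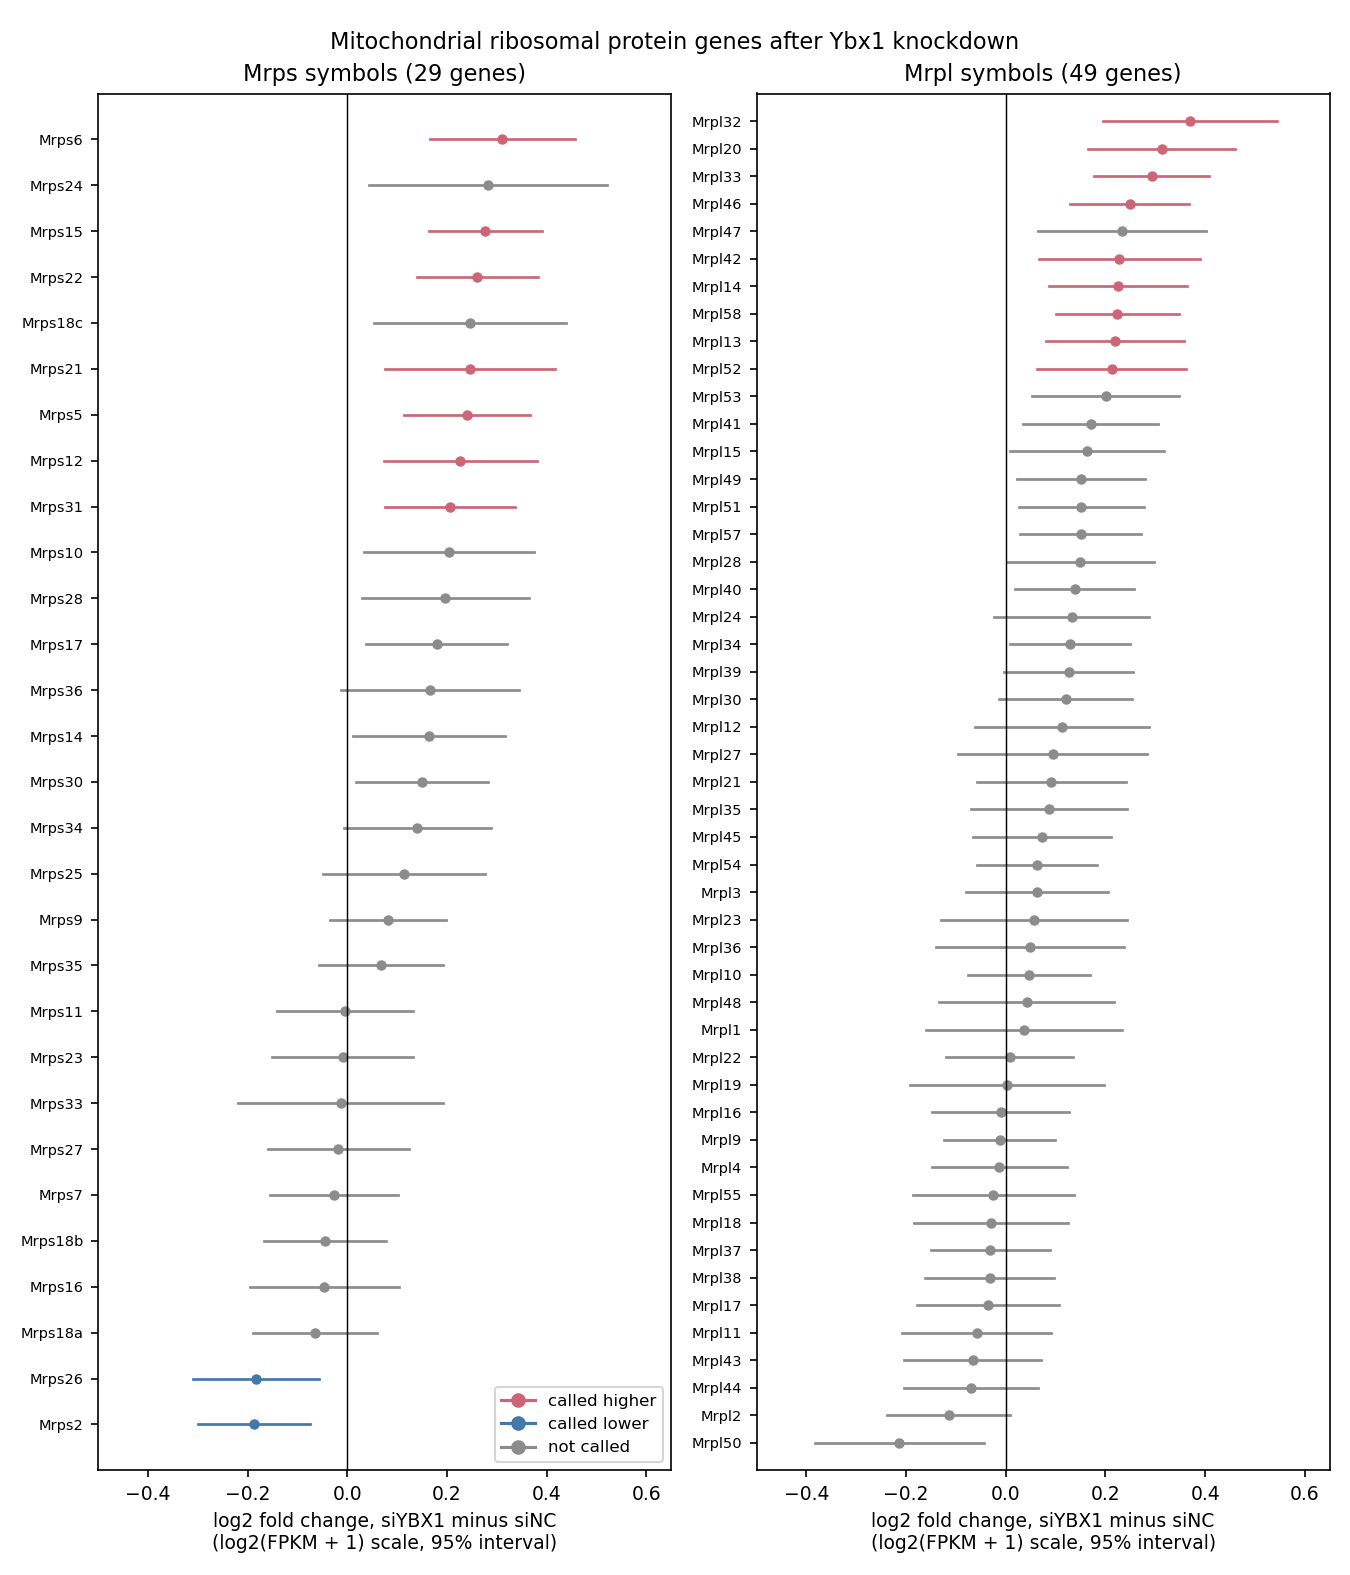
Log2 fold change (siYBX1 minus siNC, log2(FPKM + 1) scale) of each of the 29 small subunit and 49 large subunit genes, as points with unadjusted 95% intervals from limma, coloured by call. The points of 55 of 78 genes lie above 0, with Mrpl32 highest at 0.37 and Mrpl50, not called, lowest at −0.21.

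Gene length moved with these results. The FPKM values are built on whole reads and a gene length, and both could be recovered from the steps of the values for all 78 genes. The median length was 1058 bases for small subunit genes and 1496 for large subunit genes, against 3437 for all genes tested. The genes tested were divided by length into 5 groups of equal size. The shortest group, from 168 to 1846 bases, held 53 of the 78 genes (67.9%). In that group 18.9% of all genes were called higher and 6.23% lower, with a median log2 fold change of 0.08. Of the 53 ribosomal genes in it, 15 were called higher (28.3%) and 1 lower (1.89%), and their median was 0.14. The second shortest group held 13 of the 78, with no higher and 1 lower call and a median of 0.12, where all genes had 0.01. The longest group held 5, with 1 higher call and a median of 0.06, where all genes had −0.07. Across the 78 genes, log2 length and log2 fold change had a Pearson r of −0.291 and a Spearman rho of −0.352. These genes share the same 6 libraries and are not independent. As a length correction, the trend with length of all genes' deviations from their means was taken out of each library separately. In that fit 6 of the 78 were called higher and 5 lower, with a median log2 fold change of 0.07. These are 7.69% and 6.41% of the members, below the 9.88% and 10.2% of all genes tested that were called higher and lower in that fit. Of the 18 calls, 8 were kept, in Mrps2, Mrps6, Mrps15, Mrps22, Mrps26, Mrpl14, Mrpl20 and Mrpl32. The other 10 had adjusted p between 0.0505 (Mrps5) and 0.504 (Mrpl52). Mrpl2, Mrps16 and Mrps18a were then called lower.

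**Figure D2:**
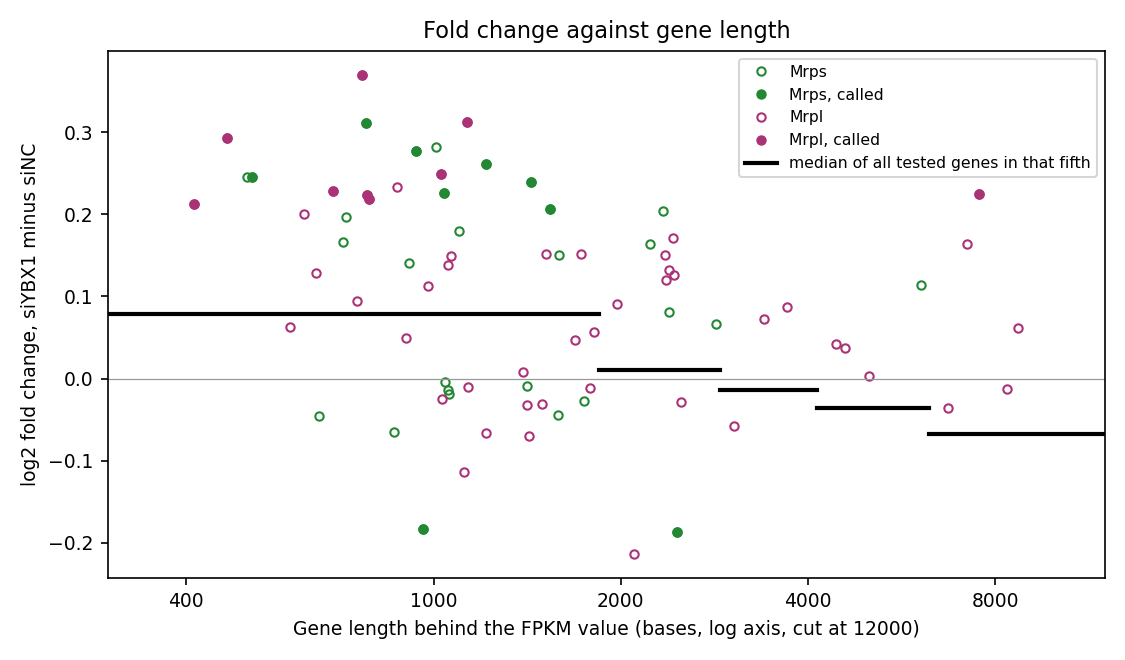
Log2 fold change (siYBX1 minus siNC) of the 78 genes against the gene length behind the FPKM value in bases (log axis), filled where called. Black lines give the median of all genes tested in each of the 5 length groups, which goes from 0.08 in the shortest to −0.07 in the longest. Most ribosomal genes lie in the shortest group, and Mrpl14 is the called gene furthest to the right.

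Of the 16 small subunit genes with a bacterial counterpart, 5 rose (31.2%) and 1 fell (6.25%), with a median log2 fold change of 0.20. Among all genes tested 9.54% were called higher and 11.1% lower, and in the shortest length group 18.9% and 6.23%. In the fit with the length correction 12.5% of the 16 were called higher and 12.5% lower, with a median of 0.09. That fit called 9.88% of all genes tested higher and 10.2% lower. Mrps6, the most abundant of all 78 genes, stood at 269, 285 and 280 FPKM in siNC 1 to 3 and at 370, 348 and 318 in siYBX1 1 to 3. All 3 knockdown libraries were above the controls, with a log2 fold change of 0.31 ± 0.07 (SE) and an adjusted p of 0.00905. On the genome Mrps6 overlaps Slc5a3, a myo-inositol transporter gene on the same strand, which fell (40.7 ± 4.19 FPKM in siNC and 31.1 ± 1.58 in siYBX1, SD, n = 3 each, log2 fold change −0.37, adjusted p = 0.00626). How reads that both genes share were counted is not given in the sources used here. Mrps15 was 41.7, 44.9 and 41.4 FPKM in siNC and 52.2, 51.7 and 51.7 in siYBX1. The siYBX1 values were nearly equal to one another and lay above all controls (0.28 ± 0.05, adjusted p = 0.00486). Mrps5 was 36.1, 40.6 and 36.0 FPKM against 44.7, 44.0 and 44.7 (0.24 ± 0.06, adjusted p = 0.0152). Without siNC 3 or siYBX1 1 its adjusted p was 0.0631 or 0.0538.

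Mrps12, a protein of the decoding centre where codon and anticodon are matched, was 16.6, 17.6 and 16.7 FPKM in siNC and 20.8, 21.5 and 17.9 in siYBX1. The groups lay apart by little, since siYBX1 3 came close to siNC 2 (0.23 ± 0.07, adjusted p = 0.0422). Its call was kept without siYBX1 3 and lost without any other library, at adjusted p between 0.0544 and 0.148. Mrps21, the second most abundant small subunit gene, was 99.2, 120 and 120 FPKM against 130, 142 and 130 (0.25 ± 0.08, adjusted p = 0.0462). siNC 1 was well below the other controls, and the fold change was 0.15 without it. The call of Mrps21 was kept without siNC 2 and lost without any other library, at adjusted p between 0.0502 and 0.154.

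Mrps2 was the bacterial-type gene that fell. It was 25.0, 24.1 and 23.3 FPKM in siNC and 21.5, 20.9 and 20.9 in siYBX1, a log2 fold change of −0.19 ± 0.05 (adjusted p = 0.0268). The groups did not overlap and the spread in each was narrow. Its call was kept without siNC 1 or siNC 3 and lost without any other library, at adjusted p between 0.0615 and 0.0827. The 10 other genes of this class were not called. Mrps24 was among them in spite of a log2 fold change of 0.28 (adjusted p = 0.0877), since its siYBX1 libraries ranged from 25.2 to 36.7 FPKM and overlapped the controls.

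Of the 11 small subunit genes listed as mitochondrial only, 2 rose (18.2%) and 1 fell (9.09%), with a median of 0.07. Beside these, 9.54% of all genes tested were called higher and 11.1% lower (18.9% and 6.23% in the shortest length group). In the fit with the length correction 9.09% of the 11 were called higher and 9.09% lower, with a median of 0.03. That fit called 9.88% of all genes tested higher and 10.2% lower. The list of 11 follows the place of the product in the ribosome and so holds Mrps18b, a paralog of Mrps18c of the bacterial-type list. Mrps22, whose human counterpart is mutated in inherited mitochondrial disease, was 25.1, 26.6 and 28.0 FPKM in siNC and 32.5, 31.9 and 31.6 in siYBX1. Its knockdown values were tightly grouped above the controls (0.26 ± 0.05, adjusted p = 0.00859). Mrps31 was 16.5, 16.4 and 17.8 FPKM against 20.6, 19.8 and 18.6 (0.21 ± 0.06, adjusted p = 0.0314). Without siNC 1, siNC 2, siYBX1 1 or siYBX1 2 its adjusted p was between 0.0521 and 0.119. Mrps26 went the other way, from 39.3, 39.9 and 41.1 FPKM to 33.0, 37.4 and 35.4 (−0.18 ± 0.06, adjusted p = 0.0449). It was called without siNC 1 or siYBX1 2, and without any other library its adjusted p was between 0.0867 and 0.17. Mrps36, also known as a component of the 2-oxoglutarate dehydrogenase complex, was not called (0.17, adjusted p = 0.162).

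Of the 30 large subunit genes with a bacterial counterpart, 5 rose (16.7%) and none fell by limma, with a median of 0.07. Beside these, 9.54% of all genes tested were called higher and 11.1% lower (18.9% and 6.23% in the shortest length group). No gene of this class was lower at an unadjusted p below 0.05 or by voom. Mrpl2 of this class was called lower after rescaling to TPM and with the length correction, where 15.2% and 10.2% of all genes tested were called lower. In the fit with the length correction 10.0% of the 30 were called higher and 3.33% lower, with a median of 0.05. That fit called 9.88% of all genes tested higher. Mrpl32 had the largest log2 fold change of the 78. Its product is cut to its mature form by the m-AAA protease of the inner membrane before it joins the ribosome. It was 51.5, 59.6 and 59.9 FPKM in siNC and 80.3, 75.1 and 66.5 in siYBX1 (0.37 ± 0.08, adjusted p = 0.00945). Mrpl20 was 35.9, 41.8 and 38.8 FPKM against 51.3, 48.6 and 45.5 (0.31 ± 0.07, adjusted p = 0.00925). In both genes siYBX1 1 was the highest library and siYBX1 3 the lowest of the knockdown. Mrpl33 was 57.9, 62.7 and 61.6 FPKM against 75.9, 72.3 and 75.5 and had the smallest adjusted p of the 78 genes (0.29 ± 0.05, adjusted p = 0.00403).

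Mrpl13, the second most abundant large subunit gene, was 92.9, 104 and 103 FPKM in siNC and 124, 115 and 111 in siYBX1 (0.22 ± 0.06, adjusted p = 0.0327). It overlaps Mtbp on the opposite strand, which was not called (−0.21, adjusted p = 0.0617). The call of Mrpl13 was kept without siNC 2 or siYBX1 3 and lost without any other library, at adjusted p between 0.0532 and 0.127. Mrpl14, which lies where the assembly factor MALSU1 binds the large subunit, was low at 5.27, 5.55 and 5.49 FPKM against 6.90, 6.55 and 6.12 (0.22 ± 0.06, adjusted p = 0.0290). The length behind its FPKM is 7525 bases, 11.7 times its principal transcript in GENCODE vM21, and it overlaps Tmem63b on the opposite strand (−0.05, adjusted p = 0.588). How much of its value comes from ribosomal protein transcripts was not tested. The call was kept without siYBX1 3 and lost without any other library, at adjusted p between 0.0541 and 0.106.

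Of the 19 large subunit genes found only in mitochondria, 4 rose (21.1%) and none fell by limma, with a median of 0.14. Beside these, 9.54% of all genes tested were called higher and 11.1% lower (18.9% and 6.23% in the shortest length group). Mrpl50 was lower at an unadjusted p below 0.05, and voom called 0 lower. After rescaling to TPM, and without siNC 1, Mrpl50 was called lower by limma. In the fit with the length correction none of the 19 was called, and their median was 0.07. That fit called 9.88% of all genes tested higher and 10.2% lower. Mrpl42, the most abundant large subunit gene, was 106, 131 and 124 FPKM in siNC and 144, 140 and 137 in siYBX1 (0.23 ± 0.07, adjusted p = 0.0487). Its fold change was 0.14 without siNC 1, and its call was kept without siNC 2 alone, the others giving adjusted p between 0.0679 and 0.139. Mrpl46 was 16.7, 17.5 and 17.2 FPKM against 20.9, 21.2 and 19.6 (0.25 ± 0.05, adjusted p = 0.0102). Its exons overlap on the opposite strand with those of a small subunit gene, Mrps11, which was not called (adjusted p = 0.971). Mrpl58, a peptidyl-tRNA hydrolase that can free stalled mitochondrial ribosomes, was 34.4, 33.9 and 34.3 FPKM against 39.1, 38.4 and 43.1 (0.22 ± 0.06, adjusted p = 0.0184). The controls were nearly equal and all lay below the knockdown. Without siNC 3 or siYBX1 3 its adjusted p was 0.0529 or 0.0608. Mrpl52 was 49.9, 52.8 and 54.1 FPKM against 67.3, 57.9 and 57.4 (0.21 ± 0.07, adjusted p = 0.0474). No single library could be left out without losing this call (adjusted p between 0.0525 and 0.17), and the fold change was 0.14 without siYBX1 1.

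**Figure D3:**
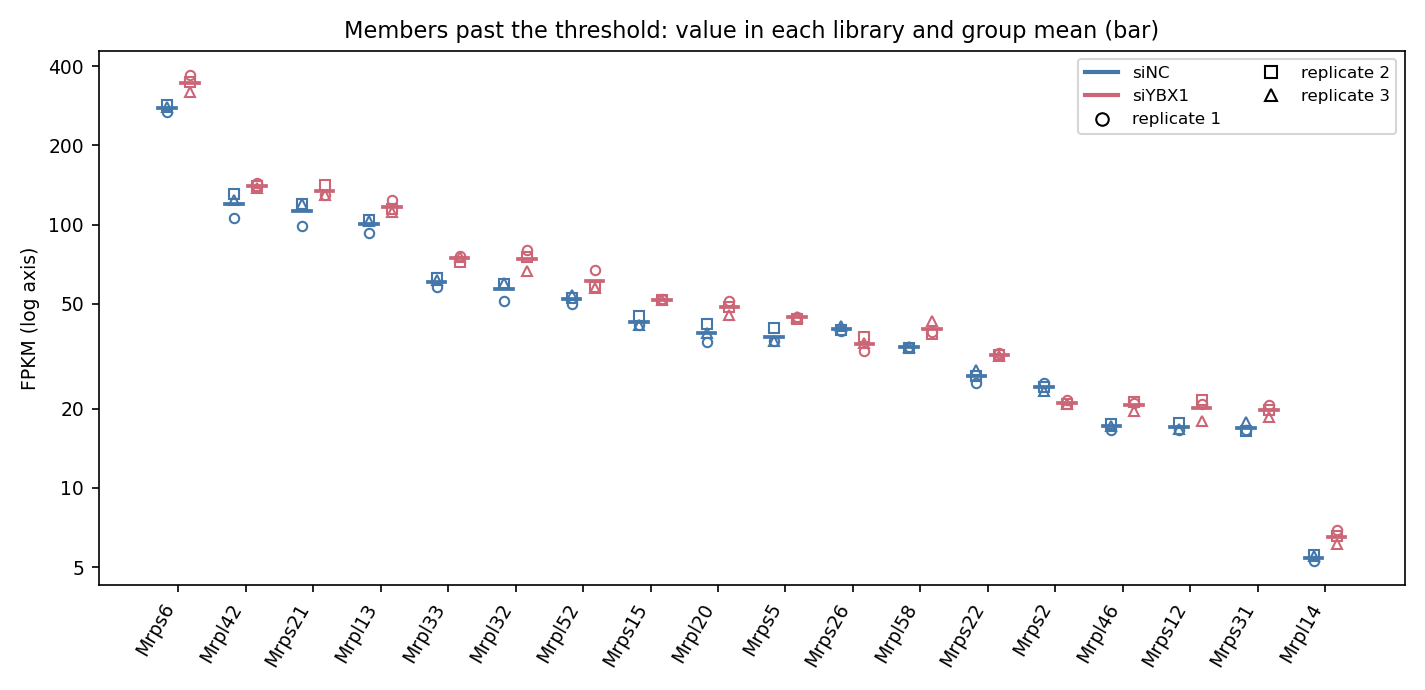
FPKM (log axis) of the 18 called genes in each library, with the symbol giving the replicate, the colour giving the group and a bar at each group mean. The siNC and siYBX1 points do not overlap in any of the 18, and only Mrps2 and Mrps26 are lower in siYBX1.

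Mrps6, Mrps15, Mrps22, Mrpl20, Mrpl32, Mrpl33 and Mrpl46 were called whichever library was left out, with a largest adjusted p of 0.0439. With the length correction Mrpl33 and Mrpl46 lost the call (adjusted p = 0.106 and 0.0547), the fold change of Mrpl33 going from 0.29 to 0.13, and the other 5 kept it. Promoters are shown for the called genes with the smallest adjusted p in each direction, Mrpl33 and Mrps15 among those that rose, and Mrps2 and Mrps26, which fell. Each is 200 bases just before the RefSeq transcript start on GRCm38.p6, 5′ to 3′ on the plus strand, in lower case with matches to any of 4 motifs in capitals. These motifs, read on both strands, are CCAAT (the NF-Y box), CCGGAAGT (an ETS-type site), GCGCATGCG (an NRF1-type site) and AAGATGGCG (a YY1-type site).
Mrpl33, chr5:31613751-31613950: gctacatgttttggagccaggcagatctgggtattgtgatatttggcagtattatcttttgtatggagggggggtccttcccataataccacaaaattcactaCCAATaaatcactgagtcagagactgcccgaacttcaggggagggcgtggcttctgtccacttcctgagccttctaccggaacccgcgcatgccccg
Mrps15, chr4:126046728-126046927: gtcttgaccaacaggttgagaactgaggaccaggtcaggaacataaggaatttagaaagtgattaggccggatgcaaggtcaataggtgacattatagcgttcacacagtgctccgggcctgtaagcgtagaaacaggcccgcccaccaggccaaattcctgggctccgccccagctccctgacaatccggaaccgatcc
Mrps2, chr2:28467866-28468065: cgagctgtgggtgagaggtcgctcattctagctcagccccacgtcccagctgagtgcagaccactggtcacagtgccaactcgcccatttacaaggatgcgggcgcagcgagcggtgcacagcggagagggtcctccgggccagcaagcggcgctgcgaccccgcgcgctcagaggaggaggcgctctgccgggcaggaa
Mrps26, chr2:130563557-130563756: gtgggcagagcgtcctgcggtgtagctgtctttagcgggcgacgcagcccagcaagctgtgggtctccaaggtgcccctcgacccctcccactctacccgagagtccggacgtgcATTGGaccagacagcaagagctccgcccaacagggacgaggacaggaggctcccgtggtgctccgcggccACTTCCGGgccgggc
In Mrpl33 CCAAT begins 97 bases before the start, and CCGGAAGT begins 3 bases before it and so runs past the end of the stretch shown. In Mrps26 both motifs read on the minus strand, at 85 and 15 bases before the start. Mrps2 and Mrps15 hold no match in the stretch shown. Mrps15 has a CCAAT match on the minus strand 42 bases after the start, outside that stretch.

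A RefSeq promoter window (250 bases before to 50 after the start) was found for 69 of the 78 genes, in 75 windows. CCAAT was in 40.0% of these windows and in 37.4% of all 32851 windows. CCGGAAGT was in 16.0% against 3.89%, GCGCATGCG in 9.33% against 1.75% and AAGATGGCG in 10.7% against 1.40%. Among the 15 genes called higher that had a window, 7 held CCAAT, 3 CCGGAAGT, 1 GCGCATGCG and 1 AAGATGGCG. Among the 52 genes not called, these numbers were 19, 8, 6 and 7. A match in these letters is a description and not a measured binding site.

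The stalk of the large subunit, which brings translation factors to the ribosome, held no call by limma or voom among its 5 genes. Mrpl53, 1 of them, had an unadjusted p of limma below 0.05. Limma called 9.54% of all genes tested higher and 11.1% lower, so 5 genes may hold no call without differing from other genes. Mrpl12, the stalk protein that is present in several copies, was 83.1, 95.5 and 99.5 FPKM in siNC and 107, 103 and 90.8 in siYBX1, with overlapping groups (0.11, 95% interval −0.06 to 0.29, adjusted p = 0.332). Mrpl10, which anchors it, was 46.0, 44.0 and 47.6 against 49.98, 45.6 and 46.8 FPKM (0.05, adjusted p = 0.580). Mrpl11 at the stalk base was 11.6, 13.5 and 12.3 against 12.0, 12.5 and 11.2 FPKM (−0.06, adjusted p = 0.576). The groups overlapped in these 3 genes. Mrpl53 was 35.6, 37.5 and 41.4 against 41.1, 44.5 and 46.3 FPKM (0.20, adjusted p = 0.0566), and its adjusted p was 0.0345 without siNC 3. Mrpl54 was 69.0, 68.0 and 65.8 against 75.0, 68.0 and 69.1 FPKM (0.06, adjusted p = 0.435). The 6 genes around the exit of the nascent chain held no call by either tool, again a list too short to set apart from all genes tested. Their median was 0.06. Of these Mrpl47, the 1 gene with an unadjusted p below 0.05, was 12.5, 14.9 and 14.5 against 18.1, 15.6 and 16.0 FPKM (0.23, adjusted p = 0.0531).

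The 3 Mrps18 genes are paralogs whose products take different places in the ribosome. Mrps18a, whose product sits in the large subunit, was 53.5, 56.1 and 59.1 FPKM in siNC and 56.4, 52.8 and 51.9 in siYBX1 (−0.07, adjusted p = 0.437). Mrps18b was 32.4, 29.1 and 31.0 against 29.02, 29.6 and 30.9 FPKM (−0.04, adjusted p = 0.601). Mrps18c was 35.5, 42.5 and 38.7 against 51.4, 47.1 and 40.7 FPKM (0.25, adjusted p = 0.0700). The groups overlapped in all 3, and Mrps18c passed the threshold without siNC 2 (adjusted p = 0.0406) or siYBX1 3 (adjusted p = 0.0286). Whether the paralogs differ from each other was not tested. Mrps30 also has its product in the large subunit and was 36.1, 31.6 and 35.4 against 39.4, 37.3 and 37.7 FPKM. Its groups did not overlap, but it was not called (0.15, adjusted p = 0.0987) except without siNC 1 (adjusted p = 0.0460). Counted by place in the ribosome, the 27 remaining small subunit genes had a median of 0.16 and the 51 large subunit genes a median of 0.09.

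The mean levels of the 78 genes ran from 4.09 to 312 FPKM. These are values per length, but the length used was more than 2 times the principal transcript in GENCODE vM21 for 6 of the 71 genes that have one, and less than 0.5 times for 9. The order of levels between genes therefore holds only for the lengths behind the table. The lowest small subunit genes were Mrps25, at 5.47, 6.49 and 6.23 FPKM in siNC and 7.02, 6.71 and 6.18 in siYBX1, and Mrps35, at 10.0, 10.0 and 10.4 against 11.2, 10.3 and 10.6. Neither passed the test (adjusted p = 0.287 and 0.422). The lowest large subunit genes were Mrpl1, at 3.81, 4.52 and 3.73 against 4.64, 4.22 and 3.61 FPKM, and Mrpl48, at 3.74, 4.22 and 4.79 against 4.21, 4.57 and 4.396. Their groups overlapped, their fold changes were 0.04 each, and their signs turned after rescaling to TPM. Each of the 78 genes rested on between 380 and 9603 reads in each library. Of the uncalled genes, Mrpl50 had the largest negative log2 fold change, at −0.21 (adjusted p = 0.0722).

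The libraries within a group were not alike for these genes. The summed level of the small subunit was 1138, 1217 and 1211 FPKM in siNC 1 to 3 and 1383, 1350 and 1263 in siYBX1 1 to 3. For the large subunit the sums were 1500, 1630 and 1637 against 1800, 1734 and 1680. In both subunits siNC 1 was the lowest library and siYBX1 1 the highest, and the groups did not overlap. Of the 78 genes, siNC 1 was the lowest control for 57, siYBX1 1 the highest knockdown library for 47, and siYBX1 3 the lowest knockdown library for 48. The median deviation from the siNC mean over small subunit genes was −0.06, 0.02 and 0.04 in siNC and 0.19, 0.13 and 0.06 in siYBX1, on the log2 scale. Over large subunit genes it was −0.07, 0.03 and 0.05 against 0.15, 0.11 and 0.06. Over all genes tested it was 0.0055, 0.0004 and −0.0038 in siNC and −0.0380, 0.0015 and 0.0069 in siYBX1. Within each group this is the reverse of the order over the ribosomal genes.

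**Figure D4:**
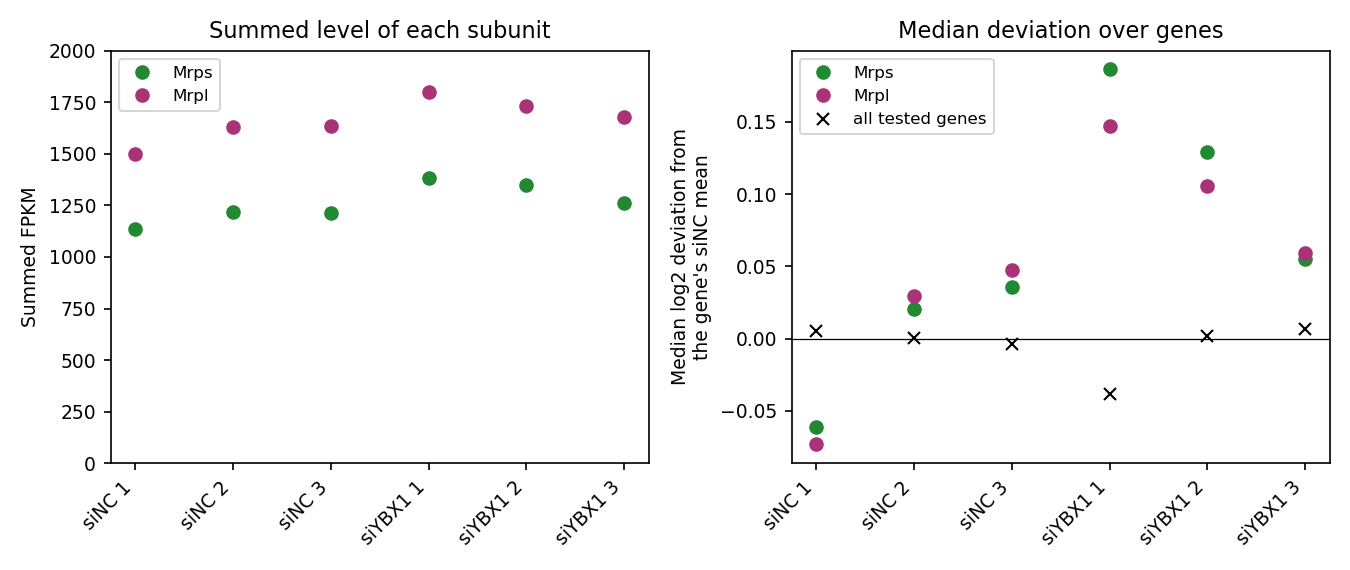
Summed FPKM of each subunit (left) and median log2 deviation of its genes from their siNC mean (right) in each of the 6 libraries, with all genes tested as crosses. Both subunits are lowest in siNC 1 and highest in siYBX1 1, and siYBX1 3 is the knockdown library nearest to the controls.

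Other genes of mitochondrial translation were read from lists by function. Of 5 mitoribosome proteins with other symbols, 2 rose (40.0%) and none fell by limma. Among all genes tested 9.54% were called higher and 11.1% lower (18.9% and 6.23% in the shortest length group). This list too is too short to set apart from all genes tested. In the fit with the length correction 1 of the 5 was called higher (Chchd1, adjusted p = 0.0174), and Aurkaip1 was not (adjusted p = 0.138). Chchd1 was 42.3, 47.7 and 45.7 FPKM in siNC and 60.8, 56.4 and 55.6 in siYBX1 (0.34 ± 0.06, adjusted p = 0.00372). Aurkaip1 was 42.6, 46.4 and 47.7 against 55.2, 50.7 and 51.2 FPKM (0.20, adjusted p = 0.0394), but was not called when any 1 library was left out (adjusted p 0.0507 to 0.149). Dap3, which binds GTP, Ptcd3, a pentatricopeptide repeat protein, and Gadd45gip1 were not called. The 26 genes for assembly of the ribosome and modification of its RNA had a median of −0.03. In the lower direction none was called by limma or voom, and 1 had an unadjusted p of limma below 0.05 (Ddx28). By limma 2 rose (7.69%), where 9.54% of all genes tested were called higher and 11.1% lower. The 2 were Mterf4, which works with Nsun4 on the large subunit (9.55 ± 0.174 against 11.9 ± 0.830 FPKM, SD, n = 3 each, limma adjusted p = 0.00903), and the GTPase gene Mtg1 (9.19 ± 0.470 against 10.6 ± 0.267, limma adjusted p = 0.0484). Mtg1 kept its call without siNC 2 and lost it without any other library, at adjusted p between 0.0775 and 0.165.

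Of 16 translation factor genes tested, 1 rose (6.25%) and none fell by limma, with a median of −0.01. Among all genes tested 9.54% were called higher and 11.1% lower. In the lower direction 2 of the 16 had an unadjusted p of limma below 0.05 (Mtrf1 and Oxa1l), and voom called 0. The gene that rose was Slirp, the partner of LRPPRC in keeping mitochondrial mRNA stable, at 54.8, 68.7 and 67.8 FPKM in siNC and 102, 83.1 and 74.8 in siYBX1 (0.43 ± 0.11, adjusted p = 0.0213). Without siYBX1 1 its fold change was 0.31 and its adjusted p 0.0687, and without siYBX1 2 the adjusted p was 0.0514. None of 19 tested genes for mitochondrial aminoacyl-tRNA synthesis was called by limma or voom, beside the same 9.54% and 11.1% of all genes tested. At an unadjusted p of limma below 0.05, 2 of the 19 were higher and 2 (Ears2 and Sars2) lower. The median of the 19 was −0.03. In this list Iars2 (31.2 ± 1.45 against 29.4 ± 0.964 FPKM, SD, n = 3 each, limma adjusted p = 0.301) and Lars2 (27.0 ± 1.25 against 33.5 ± 9.56, limma adjusted p = 0.249) were the most abundant. The log2 fold change of Lars2 was 0.26, and it was 0.07 without siYBX1 1 and 0.48 without siYBX1 3, where Lars2 passed the threshold (adjusted p = 0.0144). Of 75 cytosolic ribosomal protein genes, which are short as well, 13 rose by limma (17.3%). This stands beside 9.54% of all genes tested and 18.9% of those in the shortest length group. None of the 75 fell by limma or voom or at an unadjusted p below 0.05. Limma called 11.1% of all genes tested lower, and 6.23% of those in the shortest length group. The median of the 75 was 0.16, and 72 were above 0. The largest log2 fold changes among the called genes were those of Rpl29 (22.0 ± 1.75 against 29.1 ± 5.84 FPKM, limma adjusted p = 0.0394) and Rps7 (300.01 ± 10.9 against 378 ± 39.7, limma adjusted p = 0.0129). Rpl29 lost its call without siNC 1, siNC 3 or siYBX1 1 (adjusted p = 0.0780, 0.0823 and 0.0817). With the trend of length taken out, 4 of the 75 were called higher (5.33%) and 1 lower (1.33%), below the 9.88% and 10.2% of all genes tested.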

How the data were processed

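The authors deposited 1 table of FPKM values for 16423 gene symbols in 6 libraries, made with the VAHTS Universal V5 kit per the labels. Per the submitters' processing notes, the tools were fastp, HISAT2 and HTSeq and the build GRCm39, with no version or role stated. Strand and the counting of shared reads are not given in the sources used here. In GENCODE vM21 (GRCm38, another build), 31 of the 78 genes overlap exons of another gene, 28 of them on the opposite strand.

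The members and gene lists were chosen with earlier results of these data known. limma (3.58.1, R 4.3.3) with an intensity trend was fitted two-sided to log2(FPKM + 1) of the 10341 genes whose mean FPKM was 1 or more, with Benjamini-Hochberg adjustment and a threshold of 0.05. Fold changes on this scale understate changes of low genes. An exact permutation test of 3 against 3 libraries cannot go below 0.1. On data simulated for siYBX1 against siNC with 10339 genes, limma recovered 37.5% of 1.2-fold changes and 100% of 1.5-fold, 2-fold and 3-fold changes, and 10 of 173 calls were false. The simulation gave every gene the same dispersion and had no outlying library and no trend with length. The real libraries gave 2132 calls, so these rates need not hold for them.

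Whole reads were recovered for 16422 genes (99.9939% within 0.02 reads) from the FPKM steps and the library totals found from them. Each length is the smallest that fits, so it can be too small. 1 read on 2 kb is worth 0.0141 to 0.0156 FPKM. The alternatives were a pseudocount of 0.1, no filter, a filter of 5 FPKM, TPM, quantile normalization, a replicate block, a length correction (loess, span 0.3), both together, voom on recovered reads (mean of at least 10) and leaving out each library.

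Values in every library are given for Ybx1, for the called genes of each subunit (Mrpl52 was added beyond the 8 per direction after its values were seen), the 2 most and 2 least abundant genes, the stalk genes, the Mrps18 genes and Mrps30, and of other lists for the 2 largest called changes or, with no call, the 2 most abundant genes. Mrps16, Mrps24, Mrps36, Mrpl2, Mrpl47 and Mrpl50, genes lower only at an unadjusted p, and overlapping neighbours were named after their values were seen.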

Additional observations from a re-analysis of the deposited data

How the results depend on the processing

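Under the alternatives, the genes called among all tested numbered 2132 in the fit reported, 1241 with no filter, 1346 with a replicate block, 1206 with the block and the length correction, and 1199 to 2026 with 1 library left out. Small subunit genes called higher numbered 7, against 4 with no filter, with TPM or with the replicate block, 3 with the length correction, 0 with the block and the length correction, and 3 to 9 with 1 library left out. Those called lower numbered 2, against 1 with no filter, 0 with the block, 4 with the length correction, 1 with both, 1 with voom and 0 to 2 with 1 library left out. Large subunit genes called higher numbered 9, against 4 with no filter, 5 with TPM, 5 with the block, 3 with the length correction, 1 with both and 5 to 8 with 1 library left out. Those called lower numbered 0, against 2 with TPM, 1 with the length correction and 0 to 1 with 1 library left out. The small subunit median of 0.15 became 0.0747 with the length correction, alone or with the replicate block, and the large subunit median of 0.0910 became 0.0441 with TPM. TPM moved the median of all genes tested from −0.0108 to −0.0612, a shift larger than that drop and than the fold changes of the 3 genes whose signs turned with TPM. Signs turned for Mrpl48 (−1.43e-05 with TPM, −0.0294 to 0.115 with 1 library left out), Mrpl1 (−0.00629 with TPM, −0.0303 to 0.115 with 1 library left out), Mrpl10 (−0.00472 with TPM) and Mrpl54 (−0.00340 with quantile normalization, −0.0846 with the length correction, alone or with the block). None of these 4 genes was called. Fewer samples or more genes tested are part of the settings that leave out a library or the filter, and for the others the cause was not tested. The labels do not say whether the replicate numbers pair the libraries. Over all genes tested, deviations of same-numbered libraries from their group means correlated at −0.306, −0.131 and −0.246. These correlations cannot decide it, since the deviations of the 3 libraries of a group sum to 0. The replicate block kept 9 of the 18 called genes. The block with the length correction kept 2, and none of the 7 genes called whichever library was left out was among them (adjusted p 0.0607 to 0.195). Mrpl32 was also lost with no filter (adjusted p = 0.0608). Intervals of single genes rest on 3 libraries a group. In simulated data at this depth 37.5% of 1.2-fold changes were recovered, a rate that need not hold for these libraries. A gene not called here may still have changed 1.2-fold.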
